A study of Mus musculus with 4 samples.

Results

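The 42 genes described here drive or mark the cell division cycle: 4 regulators of the passage from G1 into S phase, 10 genes of DNA replication and nucleotide supply, and 28 genes of G2 and mitosis. They were taken as a list of symbols, and every probe on the arrays that was not a control and carried one of these symbols was used. This gave 73 of the 56605 probes, with 25 genes represented by 1 probe and 17 by several. The arrays hold 23666 genes with a RefSeq symbol in all.

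RNA came from mice aged 24 weeks on a mixed strain background (C57BL/6, 129 and C3H in the labels). The transgenic mice are called MSA Tg by the submitters, a model of multiple system atrophy, a human disease in which oligodendrocytes fill with aggregated alpha-synuclein, and the comparison mice were wild type. Brainstem/cerebellum and spinal cord were profiled in each genotype, with 1 Agilent array in 1 colour for each of the 4 groups, so no difference has a replicate check and no test between groups was possible. The labels do not name the transgene or its promoter, do not explain the prefix PLP in the sample titles, do not give the number of animals in a sample, and give brain as the source of all 4 samples. The tissue labels were checked on regional genes: in both genotypes spinal cord was lower than brainstem/cerebellum by 2-fold or more for 8 of 8 cerebellum genes, and higher by as much for 9 of 9 posterior Hox genes.

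Between 59.2% and 64% of spots were well above background on the 4 arrays, and no spot was saturated. A level below is the processed signal on the log2 scale, less the array's own 75th percentile, so 0 is the 75th percentile, and a difference is a difference of such levels. A probe that the scanner software did not place well above background is written as not above background, and the difference is then a bound (at least N-fold) against the lowest signal above background on that array or the probe's own value, whichever was higher. Repeated spots within an array gave a technical SD of a difference between 2 spots of 0.09 for levels above 0, 0.13 for levels from -2 to 0, 0.24 from -4 to -2 and 0.69 from -6 to -4. For levels from -2 to 0, from -4 to -2 and from -6 to -4 the SD rests on only 12, 11 and 8 values. That error leaves out the spread between animals and between hybridisations. The wild-type spinal cord array lay on another slide than the other 3, so in spinal cord the slide and the genotype cannot be told apart, while the genotypes in brainstem/cerebellum were compared within 1 slide. The spike-in control probes differed between the spinal cord arrays by a median of 0.42 (transgenic minus wild type, 7 probes, from -0.19 to 0.66) and between the brainstem/cerebellum arrays by -0.07.

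In a dividing cell, D and E cyclins with their kinases inactivate the retinoblastoma proteins and free E2F transcription factors, which switch on the genes that build DNA. Later, cyclin A, cyclin B and the kinase CDK1 take the cell into mitosis, Polo and Aurora kinases and kinesin motors build the spindle, and the anaphase-promoting complex ends mitosis by destroying cyclin B. Most neurons and oligodendrocytes of the adult nervous system have left the cycle, while oligodendrocyte precursors and microglia keep the ability to divide.

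The replication and mitosis genes are known to be controlled through different promoter elements, and since these groups are set against each other below, their promoter sequences were read first. The windows came from RefSeq (GRCm38.p6), cover 250 bases before to 50 after the annotated start, and matched 34 of the 42 genes with 36 windows. Prc1 and Mcm7 have 2 windows each, and every window is counted. The windows of Prc1 overlap and share their matches. The elements searched on both strands were CCAAT (bound by NF-Y), TTTGAA (the CHR element, used by mitotic genes), and an E2F-type site (TTCCCGC, or alternatively TTGGCGC, or instead TTGCCGC, or else TTCGCGC); matches may overlap, and each was counted. Stretches from 200 bases before to 30 after the start are shown 5′ to 3′ for 4 mitotic genes and 2 replication genes, with matches in capitals.
Ccnb2, chr9:70421525-70421754, minus strand: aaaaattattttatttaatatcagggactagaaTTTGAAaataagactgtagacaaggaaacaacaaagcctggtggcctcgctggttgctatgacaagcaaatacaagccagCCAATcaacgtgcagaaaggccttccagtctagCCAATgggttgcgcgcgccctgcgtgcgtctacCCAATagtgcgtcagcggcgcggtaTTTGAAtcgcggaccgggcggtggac
Top2a, chr11:99024160-99024389, minus strand: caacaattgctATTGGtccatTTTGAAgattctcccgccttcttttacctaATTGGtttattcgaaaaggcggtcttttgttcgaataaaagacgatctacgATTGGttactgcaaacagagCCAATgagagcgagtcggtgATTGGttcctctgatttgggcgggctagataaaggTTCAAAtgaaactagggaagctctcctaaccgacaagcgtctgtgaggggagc
Ube2c, chr2:164769729-164769958, plus strand: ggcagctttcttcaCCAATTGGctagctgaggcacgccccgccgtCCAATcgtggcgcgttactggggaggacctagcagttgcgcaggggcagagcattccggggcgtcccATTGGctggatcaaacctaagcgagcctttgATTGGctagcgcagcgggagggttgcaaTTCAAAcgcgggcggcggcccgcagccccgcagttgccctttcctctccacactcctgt
Cdk1, chr10:69352883-69353112, minus strand: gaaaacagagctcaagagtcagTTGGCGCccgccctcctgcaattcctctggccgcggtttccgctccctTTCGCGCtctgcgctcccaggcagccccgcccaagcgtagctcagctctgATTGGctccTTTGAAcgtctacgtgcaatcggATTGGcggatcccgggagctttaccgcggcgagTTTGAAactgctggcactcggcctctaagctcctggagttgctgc
Mcm5, chr8:75109309-75109538, plus strand: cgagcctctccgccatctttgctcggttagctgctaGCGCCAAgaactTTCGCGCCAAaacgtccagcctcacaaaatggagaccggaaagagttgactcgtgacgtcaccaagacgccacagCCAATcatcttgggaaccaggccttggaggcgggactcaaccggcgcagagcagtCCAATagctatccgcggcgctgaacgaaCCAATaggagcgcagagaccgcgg
Mcm6, chr1:128359676-128359905, minus strand: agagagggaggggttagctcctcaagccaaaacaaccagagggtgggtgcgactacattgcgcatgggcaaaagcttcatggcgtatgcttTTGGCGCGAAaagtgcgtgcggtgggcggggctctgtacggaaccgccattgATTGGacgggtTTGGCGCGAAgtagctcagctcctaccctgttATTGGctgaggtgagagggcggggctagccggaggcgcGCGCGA
Ccnb2 had 3 CCAAT boxes, first bases at -87, -54 and -21 from the start, with a TTTGAA at 5. Top2a carried a TTTGAA on the reverse strand at -23 and Ube2c one at -29, each downstream of several CCAAT boxes. The Cdk1 window held both kinds of element, 2 TTTGAA and 2 E2F-type sites. In the windows of Mcm5 and Mcm6 no TTTGAA was found, and overlapping E2F-type matches stood at -152 and -149 in Mcm5 and at -46 and -43 in Mcm6; the capitals at the end of the Mcm6 stretch are a match that runs on beyond it.

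Over the whole groups, TTTGAA was found in 18 of 24 G2 and mitosis windows (75%), in 1 of 10 replication windows (10%, Mcm2) and in 17.9% of all 32851 windows of the same length. E2F-type sites stood in 6 of 10 replication windows (60%), in 3 of 24 mitosis windows (12.5%, Ccnb1, Cdk1 and Mki67) and in 9.57% of all windows. CCAAT was frequent in both groups, at 83.3% of mitosis and 80% of replication windows against 37.4% of all, and TTTGAA together with CCAAT was found in 70.8% of mitosis windows against 6.95% of all. Of the other genes listed below, spindle and cytokinesis genes held TTTGAA in 76% of 25 windows. Other replication genes held an E2F-type site in 66.7% of 30 windows. The split was less clear in other lists. Other kinetochore and checkpoint genes held TTTGAA in 8 of 19 windows (42.1%) and an E2F-type site in 26.3%. Condensin and cohesin genes held TTTGAA in 55.6% and an E2F-type site in 66.7% of 9 windows. A match describes these letters only and does not show binding.

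**Figure D1:**
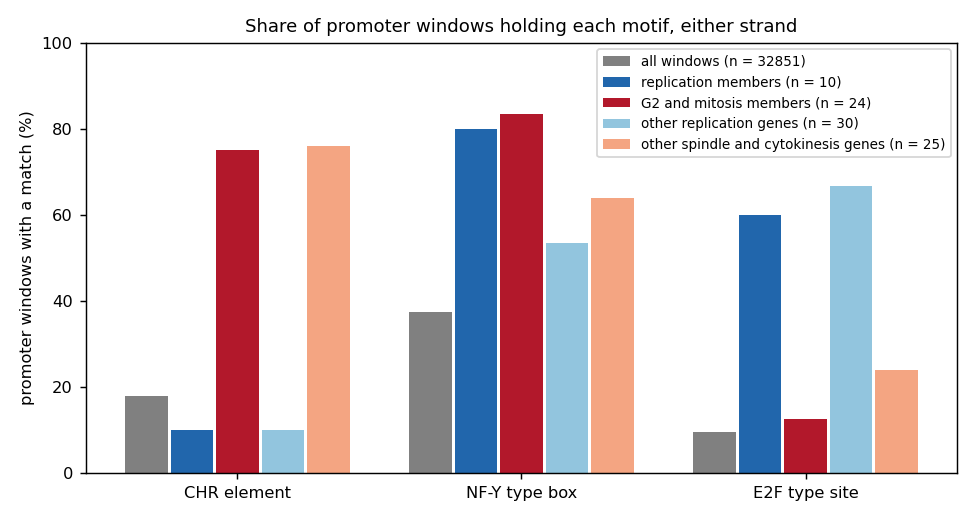
Share of promoter windows (percent, vertical axis) with a match to each of 3 elements on either strand, for all windows and for 4 groups of cell cycle genes. The CHR bars are high for both mitosis groups (75% and 76%) and the E2F bars for both replication groups (60% and 66.7%).

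On the arrays, most of the genes with a value were at least 2-fold higher in transgenic spinal cord, and a smaller number in transgenic brainstem/cerebellum. Of the 36 genes above background on at least 1 brainstem/cerebellum array, 13 were at least 2-fold higher on the transgenic array and none was 2-fold lower, where 3.67% of all genes were higher and 0.588% lower by the same rule. Of the 40 genes with a value in spinal cord, 30 were at least 2-fold higher and none was lower, against 9.72% and 6.79% of all genes. The median difference was 0.70 in brainstem/cerebellum and 2.0 in spinal cord, while over all genes it was -0.07 and -0.05. All 13 genes past 2-fold in brainstem/cerebellum were among the 30 in spinal cord. Whether more cells were in cycle or cycling cells held more of these RNAs cannot be told apart in whole tissue. Counting only genes above background on both arrays, 5 of 25 were higher in brainstem/cerebellum (2.74% of all genes) and 22 of 32 in spinal cord (8.6% of all genes), with the rest of the counted genes not above background in the wild type. Genes of that last kind can count as higher but, by the rule for bounds, not as lower. Under scaling on the spike-in probes the median of all spinal cord differences moved from -0.05 to -0.51, and 22.6% of all spinal cord calls were higher in place of 58.9%, while 29 of the cell cycle genes were still at least 2-fold higher and 1, Ccne1, was lower (-1.12). Scaling on the array median moved the median of all brainstem/cerebellum differences to -0.23 and the share of calls that were higher from 86.2% to 74.5%, with the 13 cell cycle genes still past 2-fold. Under the 11 alternatives of scaling, background, probes and filters, 38 of 40 genes stayed above 0 in spinal cord, and in brainstem/cerebellum 7 of 36 (Mcm2, Mcm4, Mcm6, Mcm7, Pcna, Aurka and Aurkb) did not keep 1 sign. Under normexp background correction, which adds an offset of 50 to every signal, only Mki67 (1.24) and Top2a (1.05) stayed past 2-fold in brainstem/cerebellum.

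How many of the genes could be seen at all also differed between the arrays: 25 were above background in wild-type and 36 in transgenic brainstem/cerebellum, 32 in wild-type and 40 in transgenic spinal cord. Of all spots, 59.2%, 61.7%, 64% and 60.9% were well above background, arrays in the same order. Cdk1, Aurkb, Bub1, Cenpf and Pbk were above background on both transgenic arrays and on neither wild-type array. Bub1b, Kif11 and Melk were above background in transgenic spinal cord only. Ccne2 and Kif2c were above background on no array. For 38 of the 42 genes the transgenic spinal cord array gave the highest of the 4 values, and the exceptions were Ccne1, Ccne2, E2f1 and Mcm5. These values were taken whether or not the probe was above background, so Kif2c is among the 38. The share of all genes that were highest on that array was not counted.

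**Figure D2:**
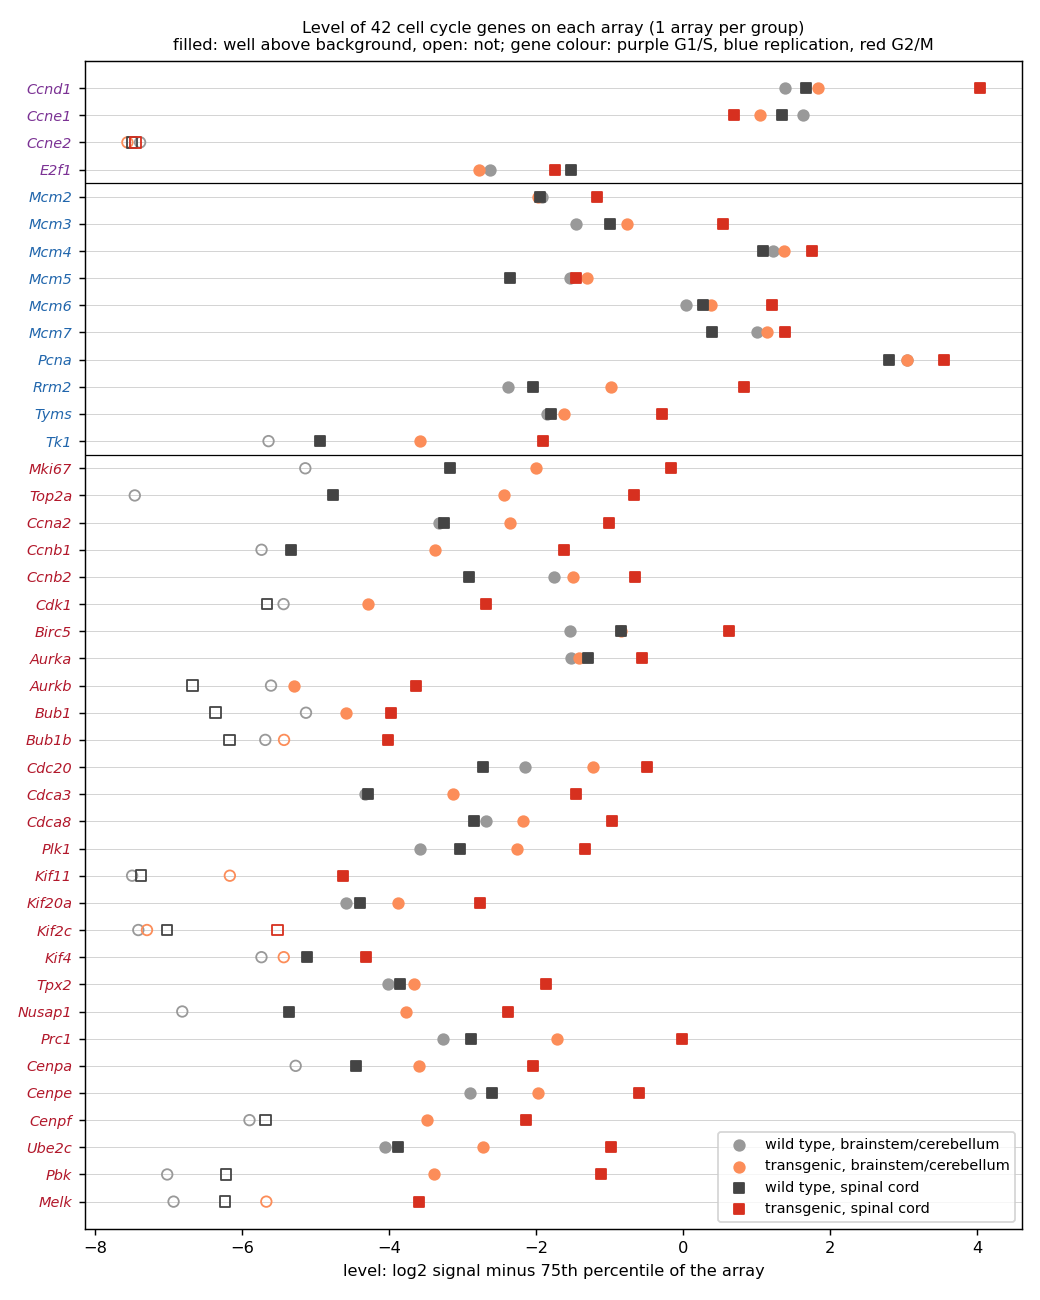
Level of each of the 42 genes (log2 signal minus the 75th percentile of the array, horizontal axis) on the 4 arrays, 1 point per array, open where the probe was not above background. The transgenic spinal cord point lies farthest right for 38 genes, and the open points are mostly wild type.

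Among the G1/S regulators the genes did not move together. Ccnd1 encodes cyclin D1, which carries growth signals to the kinases CDK4 and CDK6. Its level (probe at chr7:152116202-152116261, mm9) was 1.38 in wild-type and 1.83 in transgenic brainstem/cerebellum, and 1.67 in wild-type and 4.03 in transgenic spinal cord. The transgenic spinal cord array stood apart from the other 3: the difference was 2.36 (5.14-fold) in spinal cord and 0.45 in brainstem/cerebellum. Ccne1, cyclin E1, the partner of CDK2 at the start of S phase, had levels of 1.63 and 1.04 in wild-type and transgenic brainstem/cerebellum and of 1.35 and 0.68 in wild-type and transgenic spinal cord. Its differences of -0.59 and -0.66 made it the gene with the most negative value of the 42 in each tissue, short of 2-fold in both. E2f1, the transcription factor released from the retinoblastoma protein, was at -2.63 and -2.79 in brainstem/cerebellum and at -1.53 and -1.75 in spinal cord, wild type first. Its genotype differences were -0.15 (technical SD 0.24 at that level) and -0.22 (0.13), and its tissue difference was larger, 1.1 in the wild type and 1.04 in the transgenic mice. Ccne2, the second E cyclin, was not above background on any array.

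The 10 replication genes were all measured on both spinal cord arrays, and each was higher in the transgenic one, by 0.67 to 3.03 with a median of 0.96. In brainstem/cerebellum their differences ran from -0.05 to at least 1.65, with a median of 0.23. These medians depend on the scaling: the brainstem/cerebellum value was 0.065 after scaling on the array median, and the spinal cord value was 0.50 after scaling on the spike-in probes. The means, 0.48 and 1.40, were higher than the medians. The 2-fold line was passed by Mcm3, Rrm2, Tyms and Tk1 in spinal cord and by Rrm2 and Tk1 in brainstem/cerebellum. The minichromosome maintenance genes Mcm2 to Mcm7 encode the 6 subunits of the ring-shaped helicase that opens DNA for copying. Mcm3 differed most among them, with levels of -1.46 and -0.77 in wild-type and transgenic brainstem/cerebellum and of -1.0 and 0.54 in wild-type and transgenic spinal cord. Its 4 probes gave spinal cord differences between 1.44 and 1.62 and brainstem/cerebellum differences between 0.45 and 0.69. The other 5 subunits lay between 0.67 (Mcm4) and 0.99 (Mcm7) in spinal cord and between -0.05 (Mcm2) and 0.34 (Mcm6) in brainstem/cerebellum, so 5 of the 6 subunits stayed below 2-fold in both tissues. Mcm4, Mcm5 and Mcm7 each had their lowest value in wild-type spinal cord. Mcm5 was at -2.36 there and at -1.54, -1.31 and -1.46 on the other arrays, and its transgenic spinal cord value lay between the brainstem/cerebellum values.

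Pcna, the sliding clamp that holds DNA polymerase on its template and also serves DNA repair, was the least different between genotypes in brainstem/cerebellum. Its levels were 3.04 and 3.05 there and 2.80 and 3.55 in wild-type and transgenic spinal cord, a spinal cord difference of 0.75. Genes of nucleotide supply differed more. Rrm2, the S-phase subunit of ribonucleotide reductase, was at -2.38 in wild-type and -0.98 in transgenic brainstem/cerebellum and at -2.05 in wild-type and 0.83 in transgenic spinal cord. Both transgenic arrays were above both wild-type arrays, with folds of 2.64 and 7.34. Tk1, thymidine kinase, was not above background in wild-type brainstem/cerebellum (-5.64), and stood at -3.58 in transgenic brainstem/cerebellum, -4.94 in wild-type and -1.92 in transgenic spinal cord. That is at least 3.15-fold in brainstem/cerebellum and 8.16-fold in spinal cord. Tyms, thymidylate synthase, had levels of -1.85, -1.62 and -1.80 in wild-type brainstem/cerebellum, transgenic brainstem/cerebellum and wild-type spinal cord, and of -0.29 in transgenic spinal cord. Only the transgenic spinal cord array stood apart, by 1.51, and the other 2 Tyms probes gave smaller spinal cord differences of 0.82 and 0.83.

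On the log2 scale, the genes of G2 and mitosis differed by more than those of replication. In spinal cord 25 of the 27 with a value were at least 2-fold higher on the transgenic array, with a median of 2.24, against 4 of 10 and 0.96 for replication. In brainstem/cerebellum 11 of 23 were at least 2-fold higher, with a median of 0.97, against 2 of 10 and 0.23. Of the 13 mitosis genes measured in brainstem/cerebellum of both genotypes 4 were past 2-fold (Cdca3, Plk1, Prc1 and Ube2c), with a median of 0.92, and the other 7 of the 11 were above background on the transgenic array only. The 19 mitosis genes measured in spinal cord of both genotypes had a median of 2.24, and only Aurka (0.73) and Kif4 (0.80) stayed below 2-fold. The other 8 of the 27 were above background on the transgenic array only, and all 8 counted as higher. By the rule for bounds such a gene cannot count as lower. The gap between the mitosis and replication medians, bounds included, was 1.28 in spinal cord and 0.74 in brainstem/cerebellum. It kept its sign under every alternative that could move it, from 0.52 to 1.44 in spinal cord and from 0.30 to 0.87 in brainstem/cerebellum. No test of that gap was run, and 9 of the 23 brainstem/cerebellum values and 8 of the 27 spinal cord values behind the mitosis medians are bounds, with Aurkb entered at 0 in brainstem/cerebellum.

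**Figure D3:**
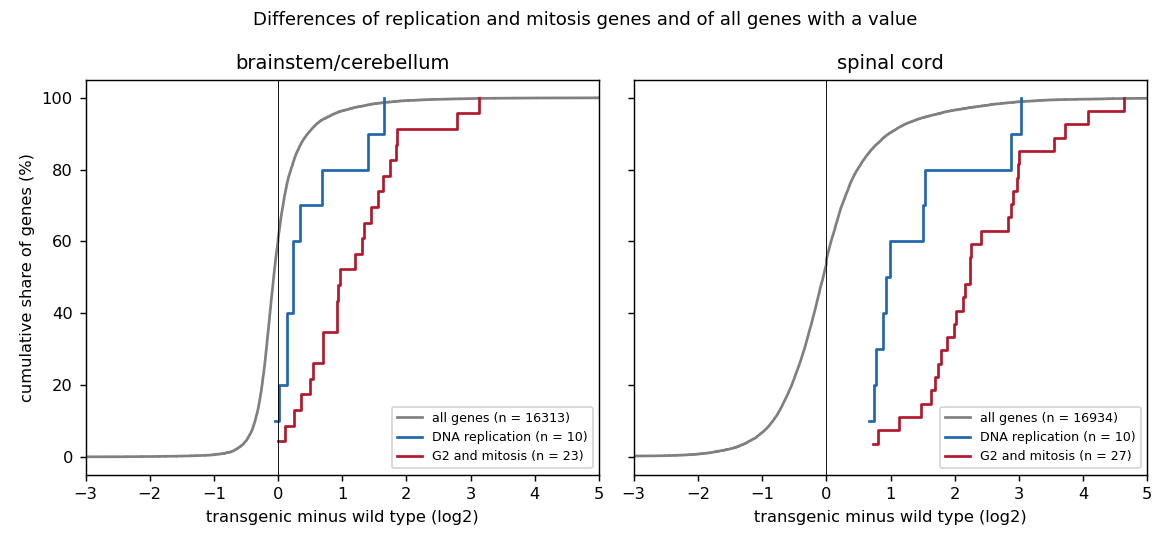
Cumulative share of genes (percent, vertical axis) at or below each transgenic minus wild-type difference (log2, horizontal axis) for all genes, the replication genes and the mitosis genes, bounds entered at their bound. The mitosis curve lies to the right of the replication curve in both tissues, with medians of 0.97 against 0.23 and 2.24 against 0.96.

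Mki67 and Top2a are the most used tissue markers of dividing cells: Ki-67 coats mitotic chromosomes and topoisomerase II alpha untangles sister DNA. Mki67 was not above background in wild-type brainstem/cerebellum (-5.14), and was at -2.01 in transgenic brainstem/cerebellum, -3.17 in wild-type and -0.17 in transgenic spinal cord. Its difference was at least 3.14 (8.80-fold) in brainstem/cerebellum, a lower bound that cannot be ranked against the 3.0 (8.01-fold) of spinal cord, and wild-type spinal cord lay above wild-type brainstem/cerebellum. Top2a was at -7.46 (not above background) and -2.45 in brainstem/cerebellum and at -4.76 and -0.68 in spinal cord, wild type first. Its folds were at least 6.90 and 17.0, and in spinal cord 48 genes above background on both arrays had a larger difference.

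The cyclins A2, B1 and B2 and their kinase were each at least 2-fold higher in transgenic spinal cord. Ccna2, cyclin A2, active in S phase and G2, was at -3.33 and -2.36 in brainstem/cerebellum and -3.26 and -1.02 in spinal cord, wild type first, with differences of 0.97 and 2.24. For Ccnb1, cyclin B1, the wild-type brainstem/cerebellum array was not above background (-5.74), and the levels were -3.38 in transgenic brainstem/cerebellum, -5.34 in wild-type and -1.62 in transgenic spinal cord. The folds were at least 3.61 and 13.2. Ccnb2, cyclin B2, whose promoter is printed above, did not follow Ccnb1 in the wild type: it was at -1.76 and -1.50 in wild-type and transgenic brainstem/cerebellum and at -2.91 and -0.66 in wild-type and transgenic spinal cord. It was thus 2.23-fold lower in wild-type spinal cord than in wild-type brainstem/cerebellum, and its genotype difference was 0.25 in brainstem/cerebellum and 2.25 in spinal cord. Cdk1, the mitotic kinase that both B cyclins activate, was not above background on either wild-type array (-5.44 and -5.66) and stood at -4.30 in transgenic brainstem/cerebellum and -2.69 in transgenic spinal cord. Its bounds were 1.91-fold and 7.85-fold.

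Plk1, the Polo kinase of mitotic entry and centrosomes, was at -3.58 and -2.27 in wild-type and transgenic brainstem/cerebellum and at -3.03 and -1.34 in wild-type and transgenic spinal cord. Its folds of 2.49 and 3.24 were the closest to each other of the genes past 2-fold in both tissues and above background on all 4 arrays. Aurka, the Aurora kinase of the spindle poles, had differences of 0.10 and 0.73 and passed 2-fold in neither tissue. Its partner Tpx2, which brings the kinase to the spindle, went from -3.86 to -1.87 in spinal cord (3.99-fold) and from -4.02 to -3.67 in brainstem/cerebellum (1.28-fold). Aurkb, the Aurora kinase of the centromere, was dim: not above background on either wild-type array, with no bound above 1 in brainstem/cerebellum and at least 4.36-fold in spinal cord. The Aurkb-bound subunits Birc5 (survivin) and Cdca8 (borealin) were measured on all 4 arrays, with differences of 0.70 and 1.47 for Birc5 and 0.50 and 1.88 for Cdca8, brainstem/cerebellum first. Survivin and borealin thus passed 2-fold in spinal cord only, and the difference between the tissues was not tested.

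Genes of the kinetochore and the spindle checkpoint were mostly near or below background in the wild type. Cenpf, a large kinetochore protein of G2 and mitosis, was not above background on the wild-type arrays (-5.90 and -5.68) and was at -3.49 in transgenic brainstem/cerebellum and -2.14 in transgenic spinal cord, at least 3.34-fold and 11.7-fold. Cenpe, the kinetochore motor, could be read on all arrays, at -2.90 and -1.98 in brainstem/cerebellum and -2.61 and -0.60 in spinal cord, differences of 0.92 and 2.01. Cenpa, the histone H3 variant that marks centromeres, was at least 3.09-fold higher in transgenic brainstem/cerebellum, with the wild type not above background, and 5.31-fold higher in spinal cord. All 3 centromere genes thus passed 2-fold in spinal cord, and Cenpf and Cenpa in brainstem/cerebellum. The checkpoint kinases Bub1 and Bub1b gave only bounds, at least 3.45-fold and 3.35-fold in spinal cord, and in brainstem/cerebellum at least 1.46-fold for Bub1 and no value for Bub1b.

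Exit from mitosis is set by the anaphase-promoting complex. Its activator Cdc20 was at -2.15 and -1.23 in wild-type and transgenic brainstem/cerebellum and at -2.73 and -0.49 in wild-type and transgenic spinal cord. The differences were 0.92 and 2.24, and a second probe gave 1.08 and 2.01. Ube2c, the ubiquitin-conjugating enzyme that works with the complex, was at -4.06 and -2.72 in brainstem/cerebellum and at -3.88 and -0.98 in spinal cord, wild type first. Both wild-type arrays were low and alike, and the folds were 2.53 and 7.47. Cdca3, which promotes mitotic entry through degradation of WEE1, had the same order of arrays, with folds of 2.31 and 7.12.

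The microtubule genes spread widely. Prc1, which bundles the central spindle, was at -3.28 and -1.72 in wild-type and transgenic brainstem/cerebellum and at -2.89 and -0.02 in wild-type and transgenic spinal cord. Its 1.56 in brainstem/cerebellum was the largest difference of the 42 genes above background on both arrays there, where 153 of all genes had a larger one, and its spinal cord difference was 2.87. Nusap1, a spindle-binding protein, was at least 2.74-fold and 7.94-fold higher. The kinesin Kif20a, which acts in cytokinesis, differed by 0.70 (technical SD 0.69 at that level) and 1.63 (0.24). Other kinesins were dimmer. Kif11, the motor that separates spindle poles, had only a bound in spinal cord (at least 2.18-fold). The chromokinesin Kif4 differed by 0.80 in spinal cord (technical SD 0.69) with no value in brainstem/cerebellum. Kif2c, which depolymerises microtubules at centromeres, had no value anywhere.

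Pbk and Melk, mitotic kinases with low levels in most resting tissue, were the last of the list. Pbk was not above background on the wild-type arrays (-7.02 and -6.23) and stood at -3.40 in transgenic brainstem/cerebellum and -1.12 in transgenic spinal cord. It was at least 24.9-fold higher in spinal cord, above every difference measured on both spinal cord arrays among these genes, and at least 3.57-fold higher in brainstem/cerebellum. Its place among the 8 genes with only a bound in spinal cord is not known. Melk was above background in transgenic spinal cord alone, at -3.60, at least 4.48-fold above the wild type.

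The 2 tissues were compared directly on the 25 genes above background on all 4 arrays. The spinal cord difference was the larger one for 23 of them, all except Ccne1 and E2f1, with a median excess of 0.93. Among all 14985 genes above background on all arrays the excess had a median of 0.02, and 52.0% had the larger difference in spinal cord. The excess was largest for Ccnb2 (2.0) and Ccnd1 (1.91), both of which had brainstem/cerebellum differences under 0.5.

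**Figure D4:**
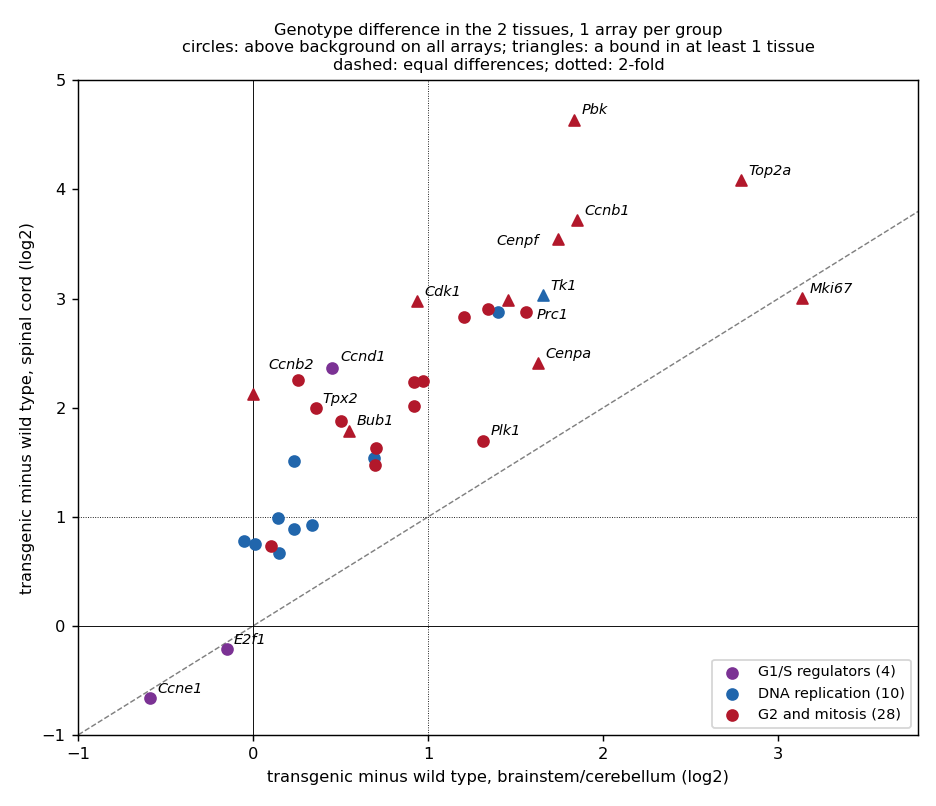
Transgenic minus wild-type difference (log2) in brainstem/cerebellum (horizontal axis) and spinal cord (vertical axis), 1 point per gene with a value in both tissues; triangles are bounds in at least 1 tissue, with Aurkb placed at 0 on the horizontal axis. Nearly all points lie above the dashed line of equal differences, with Ccne1 and E2f1 near or below 0 in both tissues and Mki67 just under the line with a bound. The horizontal place of a triangle is not a measured difference, so its side of the line does not rank the tissues.

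In the wild type alone, spinal cord and brainstem/cerebellum differed little. Of 32 genes with a value, E2f1 (2.15-fold) and Mki67 (at least 3.93-fold) were at least 2-fold higher and Ccnb2 lower in spinal cord, shares close to the 7.3% and 4.97% of all genes, and the median difference was 0.17. These arrays lay on different slides. In the transgenic mice the spinal cord array exceeded brainstem/cerebellum by 2-fold or more for 27 of 40 genes, and none was lower by as much, against 11.2% and 6.99% of all genes, with a median of 1.35. That comparison lies within 1 slide and does not use the wild-type spinal cord array. The spike-in probes still differed in it by a median of 0.36 (7 probes, from 0.25 to 0.39). Between the wild-type tissues they differed by -0.21 (from -0.33 to 0.45). The 27 genes were not counted again under scaling on the spike-in probes. Of the mitosis genes 21 of 27 were at least 2-fold higher and of the replication genes 4 of 10. The comparison of the transgenic tissues shares its spinal cord array with the comparison of genotypes in spinal cord.

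Other genes of the cell cycle were read from 7 lists by the same rule, to be held against the 9.72% higher and 6.79% lower of all genes in spinal cord and the 3.67% higher and 0.588% lower in brainstem/cerebellum. In brainstem/cerebellum 6 of the 7 lists had 0 or 1 gene past 2-fold, too few to set apart from the share of all genes. Among other cyclins, kinases and phosphatases 4 of 13 were at least 2-fold higher and 2 lower in transgenic spinal cord (median 0.51), and 1 of 13 was higher in brainstem/cerebellum (median 0.21). Cdk6, a partner of cyclin D, was higher in both tissues (1.26 and 1.53), cyclin D2 (Ccnd2) differed by 0.48 and 1.6, and Cdc25c, a phosphatase that activates CDK1, was at least 1.67 higher in spinal cord. The opposite direction was taken in spinal cord by the phosphatase Cdc25b (-2.13) and by Wee1 (-1.29), the kinase that holds CDK1 inactive. Of the inhibitors of the kinases 5 of 8 were at least 2-fold higher in spinal cord (median 1.31) and 1 of 8 in brainstem/cerebellum (median 0.68), with none 2-fold lower and with Cdkn1b and Cdkn2d below 0 in both tissues. Cdkn2a, the locus of p16 and ARF, went from -5.39 to -0.95 in spinal cord, a difference of 4.44, and Cdkn1a (p21), which stops the cycle in response to damage, differed by 1.17 and 2.20.

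Of the E2F, retinoblastoma and DREAM complex genes 4 of 17 were higher and 1 lower in spinal cord (median 0.20), and none of 16 passed 2-fold in brainstem/cerebellum (median -0.13). E2f8, a late repressor of the family, differed by 2.52 in spinal cord and Rbl1 (p107) by 1.52, while E2f4 was above background in wild-type spinal cord alone (at least 2.11 lower). Other replication genes had lower medians than the 10 replication genes above. In spinal cord 5 of 32 were higher (median 0.37) and in brainstem/cerebellum 1 of 31 (median 0.09), with none 2-fold lower. That 1 gene is too few to set apart from the 3.67% of all genes. The largest difference was that of Uhrf1, which copies DNA methylation at the fork (1.55 and 2.23). Of other kinetochore and checkpoint genes 9 of 20 were higher in spinal cord (median 0.84) and 3 of 18 in brainstem/cerebellum (median 0.32). Spc25, a subunit of the NDC80 complex that grips microtubules, differed by 1.68 and 2.96 and Cdca5 (sororin), which protects cohesion, by at least 1.45 and by 2.56.

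Other spindle and cytokinesis genes were at least 2-fold higher in spinal cord in 9 of 23 cases and lower in 2 (median 0.95), and higher in 1 of 19 in brainstem/cerebellum (median 0.32). Ckap2, a spindle protein, differed by 1.37 and 2.83 and Iqgap3 by 3.07 in spinal cord, while Kif23 (-1.78) and the cytokinesis kinase Cit (-1.08) were lower there. Condensin and cohesin subunits gave 3 of 10 higher in spinal cord (median 0.43) and 1 of 10 in brainstem/cerebellum (median 0.11), and the condensin subunit Ncapg had the largest difference in each tissue (at least 1.43, and 2.53). The medians of all 7 lists lay below the 2.24 of the mitosis genes in spinal cord and below their 0.97 in brainstem/cerebellum.

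**Figure D5:**
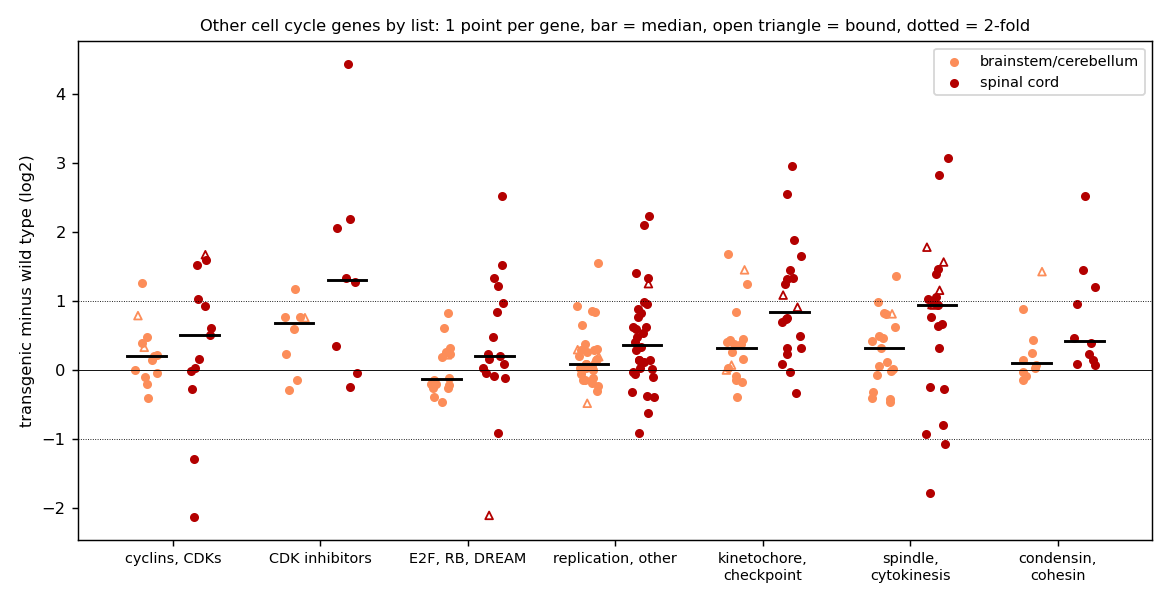
Transgenic minus wild-type difference (log2, vertical axis) of each gene in 7 lists of other cell cycle genes, by tissue, with the median as a bar and bounds as open triangles. Spinal cord medians run from 0.20 to 1.31 and brainstem/cerebellum medians from -0.13 to 0.68, with the kinase inhibitors highest in both tissues.

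Markers of the cell types that the tissue could hold were read beside these genes. Of all genes, 9.72% were at least 2-fold higher and 6.79% lower in spinal cord, and 3.67% and 0.588% in brainstem/cerebellum. In marker lists this short, 1 or 2 genes past 2-fold are too few to set apart from these shares. All 10 microglia markers were above background on all arrays, and 3 were at least 2-fold higher in transgenic brainstem/cerebellum (median 0.74) and 6 in spinal cord with 1 lower, Siglech (median 1.45). The summed linear level of that list, in units of the 75th percentile, was 40.6 and 69.1 in wild-type and transgenic brainstem/cerebellum and 86.6 and 181 in wild-type and transgenic spinal cord. Of the list for infiltrating and border myeloid cells, 4 of 9 genes were at least 2-fold higher in brainstem/cerebellum (median 0.94) and 2 of 9 in spinal cord (median 0.58). In brainstem/cerebellum 2 of the 9 lay below 0, and in spinal cord none did. The sums were 13.5, 16, 17.8 and 43.6 in the same order, so medians and sums rank the tissues differently. The macrophage gene Ms4a7 differed most (3.24 and 6.12), and the monocyte receptor Ccr2 was not above background on any array. Of 9 lymphocyte genes Cd8a and Cd79a were above background on no array, and of the 7 with a value in spinal cord 3 were higher and 1 lower. Only Cd3e and Cd4 had a value in brainstem/cerebellum, and neither passed 2-fold.

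Oligodendrocyte precursor markers had a median of -0.07 in brainstem/cerebellum, with none of 9 past 2-fold and 5 below 0. In spinal cord the median was 0.64, with 3 of 9 higher (Cspg4 at 2.36, Gpr17 at 1.45 and Pdgfra at 1.08) and 3 below 0 (lowest -0.67). The sums were 34.7, 32.7, 41.7 and 57.1. The neuroblast and progenitor list had medians of 0.14 and 0.90, and its intermediate filament gene Nes differed by 0.58 and 1.46. In spinal cord 5 of the 7 genes of that list had a value, of which 2 were at least 2-fold higher and 1 lay below 0. In brainstem/cerebellum none passed 2-fold and 2 lay below 0. Neuron markers were lower in spinal cord in 3 of 8 cases, the neurofilament genes Nefh, Nefm and Nefl, and in none in brainstem/cerebellum (medians -0.65 and -0.28). Medians of the mature oligodendrocyte list were 0.05 and 0.24, of the astrocyte list 0.16 and 0.27 (with Gfap at 1.43 and 1.08 and Gja1 at 1.95 and -1.81), of the endothelial and pericyte list -0.24 and -0.40, of the ependymal list -0.31 and 0.22, of the meningeal fibroblast list 0.31 and 0.05 and of the Schwann cell list 0.48 and -0.73, brainstem/cerebellum first. The part of these cell types in the differences of the cell cycle genes was not tested.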

How the data were processed

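Per the labels' protocols, total RNA was extracted with TRIzol, column-purified, amplified with a low-input kit, labelled with Cy3 and hybridised to 1 Agilent array per sample. The deposited scanner files hold spot intensities from Agilent Feature Extraction, version 10.7.1.1 per the file headers and 9.5.1.1 per the submitters' processing notes, background-subtracted within each array. The authors' series table also holds intensities. Its median was 30.4 in all 4 columns and its log2 values correlated at 0.9999 over probes with a quantile normalization of the deposited processed signals, so its scale and direction could be read. How it was normalized is not stated in the labels, and it served as an alternative. Probe coordinates are mm9 per the file headers.

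Here, log2 processed signal minus each array's 75th percentile was used, without control spots and outlier-flagged spots (63 to 134 per array, none of these genes). The 75th percentile was a signal of 437, 458, 678 and 410 on wild-type and transgenic brainstem/cerebellum and wild-type and transgenic spinal cord. Of several probes for a gene, the brightest by its 4-array mean was used. A difference counted from 2-fold, bounds included. Shares over all genes use genes with a value in the same comparison (16313 in brainstem/cerebellum, 16934 in spinal cord). Technical SDs came from repeated spots, and 1 array per group limits the precision. All 42 genes are named. Of the lists of other cell cycle genes, counts, medians and up to 4 genes with the largest difference are given. Wee1 and Cit are added, and were chosen after their values were seen. Of the marker lists, counts, medians or both are given, with a few genes named. A few list genes are not reported here. The genes and lists were chosen with earlier results of these data known. Scripts ran in Python 3.11.15 and R 4.3.3 with limma 3.58.1 and were tested on simulated data. Of the gene lists, Sgol1, Sgol2a and Trbc2 had no probe of that name.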

Additional observations from a re-analysis of the deposited data

How the results depend on the processing

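Of 161 values recomputed for the counts and medians given above, 126 stayed near their size and 35 moved further, and none turned its direction. The 126 include the replication median in brainstem/cerebellum, which was 0.13 in place of 0.23 with the mean of all probes. Normexp background correction gave 2 genes higher in brainstem/cerebellum, medians of 0.36 for all genes of the list and 0.46 for the mitosis genes there, of 1.32 and 1.42 in spinal cord, and 0 genes higher and 0 lower in wild-type spinal cord against brainstem/cerebellum. Scaling on the spike-in probes gave spinal cord medians of 1.55 (all), 0.50 (replication) and 1.78 (mitosis), 1 gene lower in spinal cord and 0 lower in wild-type spinal cord against brainstem/cerebellum. Scaling on the array median gave 0.065 for the replication genes in brainstem/cerebellum and 1 gene higher in wild-type spinal cord. Requiring both arrays above background gave 5 genes higher and a median of 0.45 in brainstem/cerebellum and 1 gene higher in wild-type spinal cord. Requiring all 4 gave 5, 0.45 and 1 for the same values, and 16 genes higher with a median of 1.63 in spinal cord, with fewer genes counted by construction. Without a filter, 4 genes were higher and 3 lower in wild-type spinal cord, and 37 had the larger difference in spinal cord. At 1.5-fold, 20 genes were higher and 1 lower in brainstem/cerebellum, 1 was lower in spinal cord, and 4 were higher and 3 lower in wild-type spinal cord. At 3-fold, 7 genes were higher in brainstem/cerebellum, and 1 was higher and 0 lower in wild-type spinal cord. Means in place of medians gave 0.48 and 1.40 for the replication genes in brainstem/cerebellum and spinal cord.

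Normexp adds an offset of 50 to each signal, which by construction shrinks the differences of dim probes; the cause of the other shifts was not tested. Quantile normalization, cyclic loess, the authors' values and keeping outlier-flagged spots changed these values by little. In that order, 31, 31, 31 and 30 genes were higher in spinal cord. The mitosis median in brainstem/cerebellum was 0.85, 0.93, 0.84 and 0.98. Dim signals limit the depth here: 18 of the 73 probes were above background on no array and 31 on all 4, and differences of dim genes carry a technical SD of up to 0.69. No paired analysis was possible because each group has 1 array.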

Other observations

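Where several probes of a gene were above background, they mostly gave differences of the same size, and a few did not. A second Ccna2 probe, dimmer than the first, gave at least 1.46 in brainstem/cerebellum and 1.54 in spinal cord, where the brighter probe gave 0.97 and 2.24 (the first value of the dimmer probe is a lower bound). Between the transgenic tissues the dimmer probe gave 0.01 and the brighter one 1.35. Ccna2 is thus among the 27 genes higher in transgenic spinal cord than in transgenic brainstem/cerebellum by its brighter probe only. A second Tk1 probe gave at least 1.30 and 2.13 against at least 1.65 and 3.03. A second Prc1 probe gave at least 1.25 in brainstem/cerebellum and 2.85 in spinal cord, close to the 1.56 and 2.87 of the first. The second Birc5 probe was above background on the spinal cord arrays only and gave 1.79 there against 1.47. Of the 4 Ccnb1 probes 3 were above background on no array, and of the 5 Prc1 probes also 3, so the values of these genes rest on the remaining probes.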
